A study of Mus musculus with 12 samples.

Results

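The comparison of Eng+/- with wt at 90 days used 6 of the 12 arrays of the study, those whose titles carry 90 d or 90. They form 3 pairs of 1 Eng+/- array and 1 wt array: a pair with no named treatment, a pair titled clp and a pair titled tpa. Each pair lay on 1 slide, so treatment and slide cannot be told apart, whereas genotype was compared within slides. Per the labels, Cy5 carried the RNA of the sample on each array, and Cy3 a common reference pooled from every condition. The value of a gene on an array is its log ratio, log2 of Cy5 over Cy3. The value of a pair is the log2 difference, the Eng+/- log ratio minus the wt log ratio, so that negative differences stand for lower RNA in Eng+/-. A log2 difference of -1 is a 2-fold lower signal. Values are given in the order no named treatment, clp, tpa.

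The groups were Eng+/- (written end+/- in the titles) and wt, both at 90 days. What the days count, what clp and tpa stand for, how the Eng allele was modified, where the Eng probe lies relative to that change, and how many animals or cultures stand behind an array are not stated in the sources used here. The title of the wt array without a named treatment also carries the word pool, and that array was used as a wt sample. There was 1 array per combination of genotype and treatment, so each p-value and each standard error (SE) measures the spread between pairs in the model of all 12 arrays, 50 day pairs included (4 residual degrees of freedom), and that spread may be technical. The labels and the growth protocol name E14 embryonic stem cells. Pou5f1, Zfp42 and Esrrb, 3 genes of such cells, had no probe that could be tested. The other 12 of the 15 listed embryonic stem cell genes were tested. All 12 were well above background on the 3 Eng+/- arrays, as were 22551 of all 25108 features. The epidermal keratins Krt5, Krt14, Krt1 and Krt10 and 11 of the 14 measured hair shaft keratins were well above background on all 6 arrays, as in skin with hair follicles. The material is therefore described below by its genes.

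Endoglin, the product of Eng, is a co-receptor that binds ligands of the TGF-beta and BMP family together with their signalling receptors and is best known from endothelial cells. These receptors act through Smad proteins, and the BMP branch is held in check by secreted antagonists such as noggin. The title of the study places endoglin in the hair follicle cycle, in which follicles pass from growth (anagen) through regression (catagen) to rest (telogen) and back. The hair shaft and its inner root sheath are built in growing follicles, from hair keratins, keratin-associated proteins and trichohyalin, by matrix cells that receive pigment from melanocytes.

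At 90 days the genes of the hair shaft were lower in Eng+/- than in wt in every pair, most in the pair without a named treatment. All 83 measured hair structural genes (shaft keratins, inner root sheath genes, keratin-associated proteins and other shaft genes) were lower in all 3 pairs, with median log2 differences of -5.93, -1.83 and -1.86. With Cy5 alone, or with arrays centred on their median, some of these genes were not lower in every pair. Of 17 melanocyte genes, 12 were lower in all 3 pairs, as were 11 of 15 matrix transcription factors. Of 27 skeletal muscle genes, 21 were higher in all 3 pairs, with a median fitted difference of 0.91. No single gene passed the test across all genes. In these bulk samples, fewer cells of a type and less RNA per cell cannot be told apart.

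The pattern was tested across the whole array in a limma model with a level for each pair and a genotype difference for each day. A pair is a treatment at a given day, and the 90 day contrast averages the 3 pairs of that day. Of 25108 features (17189 with a gene symbol), 0 had an adjusted p under 0.05 in limma with Benjamini-Hochberg adjustment, which is 0% of those tested. The smallest adjusted p was 0.0543, and 31 features that were lower, with or without a symbol, had an adjusted p under 0.06. At an unadjusted p under 0.05 the model gave 3247 features, 1691 lower and 1556 higher. Other settings of the signal did make calls: 247 features with arrays centred on their median in place of loess, 269 with Cy5 alone and 96 with probes above background in both channels. Without the pair lacking a named treatment the count was again 0, with 1877 features at an unadjusted p under 0.05 and a smallest adjusted p of 0.0613. A fit to the 90 day arrays alone called 207 features in the same contrast, with the spread estimated from the clp and tpa pairs only. With all 3 pairs, a fit to the 90 day arrays alone called 0. A sign flip test over 3 pairs cannot go below an exact p of 0.25.

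Signs and sizes were therefore counted over pairs, beside the same counts over all features. Over all features, 3926 (15.6%) were lower in 3 of 3 pairs and 4434 (17.7%) were higher. A difference of at least 2-fold in every pair was found for 202 features (0.805%) in the lower direction and for 7 (0.0279%) in the higher. Of those 202, 151 had a symbol and 62 were hair structural genes. The 3 Eng+/- arrays lay wholly below the 3 wt arrays for 1556 features (6.2%) and wholly above them for 1801 (7.17%). Both named-treatment pairs were lower for 6162 features (24.5%) and higher for 6493 (25.9%).

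The pairs differed in how far Eng+/- stood from wt. In the pair without a named treatment, 1119 features (4.46%) were at least 2-fold lower and 1348 (5.37%) at least 2-fold higher. In the clp pair these counts were 1220 (4.86%) and 517 (2.06%), and in the tpa pair 326 (1.3%) and 45 (0.179%). Across all features the differences of the pairs correlated with r = 0.326 between no named treatment and clp, 0.517 between no named treatment and tpa and 0.295 between clp and tpa. Genes are not independent replicates, and all arrays share the reference pool. The clp pair holds the wt clp array, which stood apart: the interquartile range of its log ratios was 0.487, against 0.807 to 0.888 on the other 90 day arrays. Its reference channel also had the lowest median correlation with that of the other arrays among the 90 day arrays, 0.977 against 0.987 or 0.988. Of the 50 day arrays, which also enter the model, the wt array without a named treatment had 0.431 and 0.951 on these measures. On the 90 day arrays the median Cy5 intensity ranged from 217 (wt without a named treatment) to 573 (its Eng+/- partner). There 68.06 to 76.55% of spots were above background and 1.31 to 4.29% saturated. The part of these array differences in the results was not tested.

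**Figure D1:**
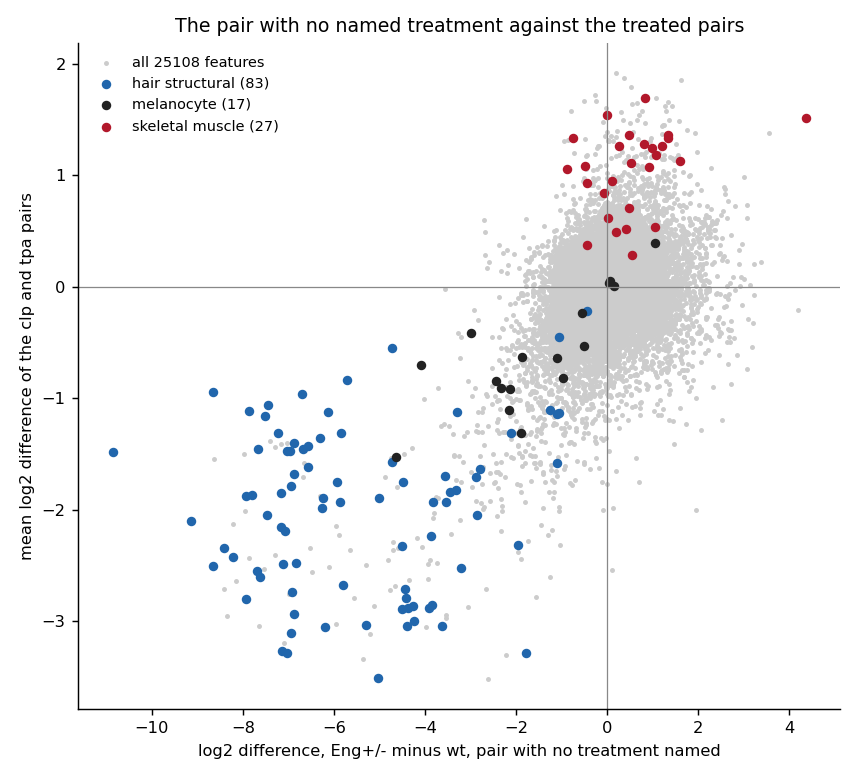
Each point is a gene: its log2 difference (Eng+/- minus wt) in the pair without a named treatment on the x axis and its mean log2 difference in the clp and tpa pairs on the y axis, with all 25108 features in grey. The 83 hair structural genes lie below 0 on both axes, the melanocyte genes mostly so, and most of the 27 skeletal muscle genes lie to the upper right.

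Hair shaft keratins form the hard filaments of the hair. All 14 measured genes of 16 listed (Krt83 and Krt85 had no tested probe) were lower in all 3 pairs, 9 of them at least 2-fold in each, and in all 14 the 3 Eng+/- arrays lay below the 3 wt arrays. Their median log2 differences were -5.85, -1.78 and -1.88. Krt84, a type II hair keratin, had log ratios of -5.37, -2.49 and -3.83 on the Eng+/- arrays and -0.09, 0.54 and -0.78 on the wt arrays. The Eng+/- values were all far below the wt values and no spot was saturated. The fitted log2 difference was -3.79 ± 0.53 (SE from the model of all 12 arrays, as for every fitted error below), with an adjusted p of 0.0748 in limma. It was -3.04 without the pair lacking a named treatment, with an adjusted p of 0.12.

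Krt34, a type I shaft keratin, had log ratios of -7.85, -1.08 and -1.69 on the Eng+/- arrays against 1.29, 0.81 and 0.64 on the wt arrays. Krt33a, another type I shaft keratin, had -9.46, 0.27 and -1.29 against 1.39, 1.25 and 0.70. In both genes the Eng+/- array without a named treatment stood far below all others, and the other Eng+/- arrays lay below the wt arrays by a smaller margin. The spots of both genes were saturated on all 3 wt arrays, so the size of their differences is not known. Krt34, with no saturated spot in Eng+/-, was at least 13.4-fold lower on the group mean. The Eng+/- array without a named treatment pulled that mean down. In the clp and tpa pairs the measured log2 differences of Krt34 were -1.88 and -2.32. Krt33a was also saturated on 1 Eng+/- array, and no bound is given for it. The bound sets the mean of the bright group, with saturated spots at their value, against the mean of the dim group.

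Krt32 and Krt36, type I keratins without a saturated spot, varied less between pairs. Krt32 had log ratios of -3.24, -1.11 and -1.79 in Eng+/- and 0.31, 0.98 and -0.02 in wt, but was not well above background on the Eng+/- array without a named treatment. Its fitted difference was -2.47 ± 0.37 (adjusted p = 0.0793, limma). That of Krt36 was -2.57 ± 0.37 (adjusted p = 0.0752, limma), with pair differences of -3.83, -1.83 and -2.04. The other probe of Krt36 had smaller differences of -1.71, -0.60 and -0.67. Krt40, also at least 2-fold lower in each pair by the probe used, had -1.50, -0.30 and -0.82 by its other probe. Krt82, a cuticle keratin, differed by -2.86, -2.55 and -1.56 in the 3 pairs. Krt39 had the smallest fitted difference of the list, -0.65 ± 0.21. Leaving out either array of the pair without a named treatment moved the median fitted difference of the list from -3.06 to -1.93.

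The promoters of 4 of these genes are shown because the hair structural genes moved in 1 direction together: 3 keratins described above and Krtap24-1, the keratin-associated gene with the smallest adjusted p. Each line gives the 250 bases before the gene's start, from RefSeq on GRCm38.p6, 5′ to 3′ on the gene's minus strand. The lines cover chr11:100041555-100041804 for Krt34, chr11:100088270-100088519 for Krt32, chr15:101532821-101533070 for Krt84 and chr16:88612280-88612529 for Krtap24-1. Capitals mark matches, on either strand, to CTTTGAAGA (a motif described in hair keratin promoters), to the shorter CTTTGA that it contains (the core bound by LEF1 and TCF factors), to TATAAA (the TATA box) and TTTATG (an AT-rich core of HOX binding). The motifs were chosen with the values known, and a match is a description of the letters only.
Krt34: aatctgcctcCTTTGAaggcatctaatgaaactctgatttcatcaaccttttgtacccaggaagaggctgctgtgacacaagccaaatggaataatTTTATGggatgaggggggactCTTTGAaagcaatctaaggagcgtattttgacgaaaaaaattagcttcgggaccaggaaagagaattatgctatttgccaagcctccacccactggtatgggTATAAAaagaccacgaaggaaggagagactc
Krt32: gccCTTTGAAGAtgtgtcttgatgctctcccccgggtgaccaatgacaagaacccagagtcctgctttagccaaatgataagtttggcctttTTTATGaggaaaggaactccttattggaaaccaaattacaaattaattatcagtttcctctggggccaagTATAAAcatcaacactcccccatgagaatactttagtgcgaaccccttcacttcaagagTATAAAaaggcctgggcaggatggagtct
Krt84: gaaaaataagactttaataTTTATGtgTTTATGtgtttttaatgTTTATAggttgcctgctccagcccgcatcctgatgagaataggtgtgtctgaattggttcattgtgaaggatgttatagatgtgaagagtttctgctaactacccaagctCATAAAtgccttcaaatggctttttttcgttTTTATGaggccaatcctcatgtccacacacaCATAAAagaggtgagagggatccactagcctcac
Krtap24-1: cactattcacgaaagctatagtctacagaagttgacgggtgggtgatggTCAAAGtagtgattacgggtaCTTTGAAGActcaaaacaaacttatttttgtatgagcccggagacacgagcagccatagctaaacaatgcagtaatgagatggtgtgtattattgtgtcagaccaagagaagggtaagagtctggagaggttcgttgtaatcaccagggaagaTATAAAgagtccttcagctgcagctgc

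Of the 83 measured hair structural genes, 70 had a promoter entry, in windows from 250 bases before to 50 after the start. TATAAA was found in 53 of 70 (75.7%) against 13.6% of all 32851 promoters, in 37 of 45 keratin-associated genes and 6 of 9 shaft keratins. TTTATG was found in 8 of 9 shaft keratins (88.9%) against 11.9% of all promoters, and in 22 of the 70. CTTTGA stood in 22 of 70 (31.4%) against 16%, in 5 of 9 shaft keratins. The longer CTTTGAAGA stood in 5 of 70 (7.14%), namely Krt32, Krtap3-3, Krtap24-1, Krtap14 and Krtap16-3, against 161 promoters or 0.49% of all. CTTTGAT was found in 5 of 70 (7.14%, against 3.73% of all), TTTACG in 3 (against 3.03%), CAGGTG in 24 (34.3% against 20.2%) and GCGTG in 8 (11.4% against 32.4%). Many keratin-associated genes are near copies of each other in clusters, so these promoters are not independent of each other.

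Keratin-associated proteins are the small cysteine- or glycine-rich proteins that cross-link the keratin filaments of the shaft. All 50 measured genes of 56 listed were lower in all 3 pairs, 45 of them at least 2-fold in each, with medians of -6.06, -1.86 and -2.25. In 41 of the 50 the arrays of the genotypes did not overlap. Probes of this family may also capture RNA of near-identical members, so single members are uncertain. Krtap15 had log ratios of -6.05, -2.22 and -3.06 in Eng+/- and -1.01, 1.23 and 0.51 in wt. Every Eng+/- array lay below every wt array, with pair differences of -5.04, -3.45 and -3.57 and a fitted difference of -4.02 ± 0.52 (adjusted p = 0.0593, limma). Its difference in the pair nearest to 0 was the largest of all named genes that were lower.

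Krtap24-1 had log ratios of -0.89, 0.04 and 0.08 in Eng+/- and 0.17, 1.05 and 1.32 in wt. Its differences of -1.06, -1.02 and -1.24 were among the most even of the family, and the fitted difference was -1.10 ± 0.11 (adjusted p = 0.0543, limma). On the Eng+/- array without a named treatment its spot was not well above background, so that difference understates a gap of unknown size. Krtap14 differed by -7.14, -2.71 and -3.83, and Krtap1-5 by -8.65, -2.29 and -2.73. Krtap31-1 and Krtap31-2 were lowest in the tpa pair instead, at -4.21 and -5.18, and Krtap7-1 had -1.79, -2.88 and -3.69. Krtap10-10 and Krtap10-4 had among the smallest fitted differences of the family, -1.16 and -1.42.

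Inner root sheath genes encode the sheath that moulds the growing hair and the companion layer around it. All 11 were lower in all 3 pairs, with medians of -6.84, -1.60 and -0.90, and 10 of the 11 did not overlap between genotypes. Leaving out either array of the pair without a named treatment moved their median fitted difference from -3.19 to -1.16. Krt26 had log ratios of -5.26, -0.67 and -0.95 in Eng+/- and 1.58, 2.56 and 0.77 in wt, with a fitted difference of -3.93 ± 0.88 (adjusted p = 0.161, limma). It was not well above background on the Eng+/- array without a named treatment. Krt27 had -7.23, -0.13 and 0.50 against 1.43, 1.24 and 1.02. It was saturated on every wt array and on 1 Eng+/- array, so the size of its difference is not known. Tchh, which encodes trichohyalin, the granule protein of the sheath, differed by -7.02, -2.05 and -0.90, with saturated spots on every wt array and 2 Eng+/- arrays. Krt75 of the companion layer had a fitted difference of -1.85 with arrays that overlapped between genotypes, and Krt74 had -0.29, the smallest of the list.

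Among 8 other shaft genes, all were lower in all 3 pairs and 6 did not overlap. Padi3, which converts arginine to citrulline in trichohyalin, had log ratios of -7.19, -1.67 and -2.02 in Eng+/- and -0.07, 1.19 and 0.10 in wt. The fitted difference was -4.03 ± 0.87 (adjusted p = 0.147, limma). Crym and S100a3, both abundant in the hair shaft, differed by -3.41 and -2.46 in the fit. Dsg4, the desmosomal cadherin of the shaft, had a smaller and more even difference of -1.10, -1.58 and -0.71, with overlap. Of the 83 hair structural genes, 82, 74 and 68 were at least 2-fold lower in the 3 pairs in turn. Of these genes 53 had a saturated spot on 1 or more wt arrays and 9 were not above background on the Eng+/- array without a named treatment, so many differences are understated.

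**Figure D2:**
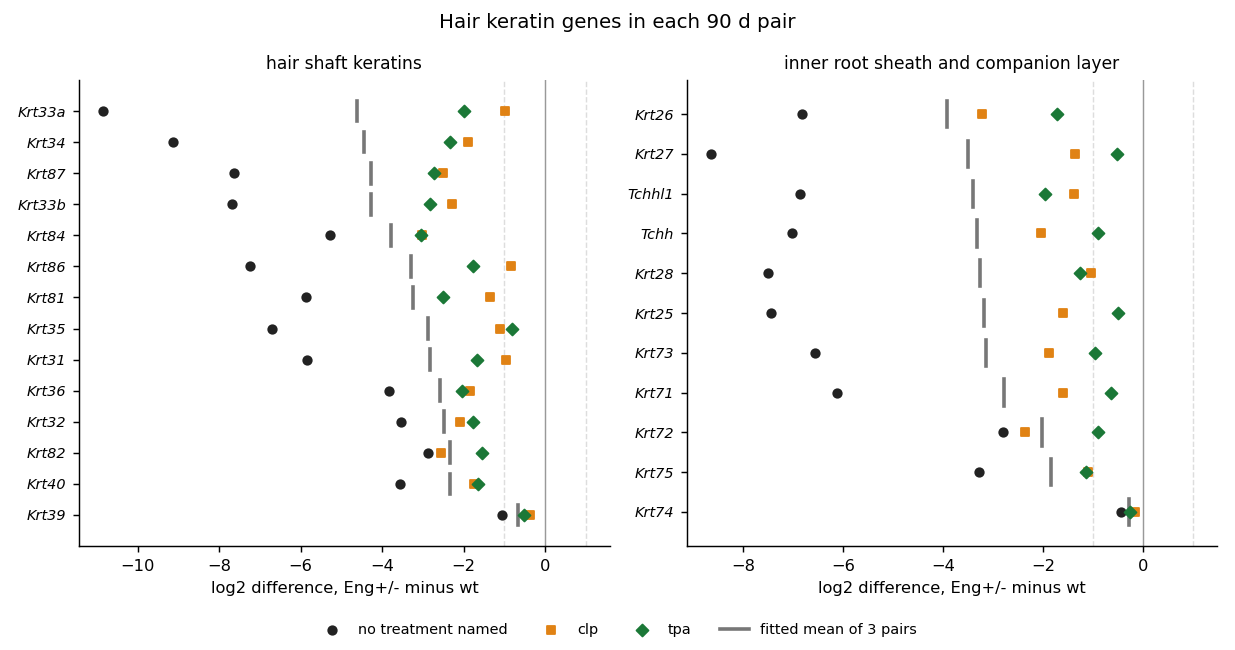
Log2 difference (x axis, Eng+/- minus wt) of each hair shaft keratin (left) and inner root sheath gene (right) in the 3 pairs at 90 days, with the fitted mean as a grey bar and dashed lines at a 2-fold difference. Every point of these 25 genes lies below 0, and the pair without a named treatment lies farthest to the left for most of them, at -10.85 for Krt33a, a gene with saturated spots.

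The size in the pair without a named treatment followed 1 array. The median log ratio of the 14 shaft keratins was -5.36 on its Eng+/- array, against -0.82 and -1.62 on the clp and tpa Eng+/- arrays and 0.66, 0.79 and 0.39 on the wt arrays. The Eng+/- array without a named treatment was most like the wt tpa array at 50 days over all ratios (r = 0.969) and correlated with its own wt partner at 0.682. At 50 days the keratin medians were -0.89, 1.16 and -4.59 in Eng+/- and 0.22, 1.10 and -4.64 in wt. The 3 lowest of the 12 arrays were thus this array and both genotypes of the tpa pair at 50 days. The keratins were lower in the 90 day clp and tpa pairs as well, which do not hold the lowest array.

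At 50 days the 83 hair structural genes had medians of -2.03, 0.03 and 0.37, and 10 of them were lower in all 3 pairs, against 4607 of all 25108 features (18.3%). The difference between the genotype contrasts at 90 and 50 days was tested for every feature in limma and called 0, with 1041 at an unadjusted p under 0.05 and a smallest adjusted p of 0.897. No gene was thus shown to differ between days. Among the named genes this contrast had Elf5 with a small error: -1.0 ± 0.17, from 90 day differences of -1.20, -0.77 and -0.74 and 50 day differences of 0.15, 0.03 and 0.09.

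**Figure D3:**
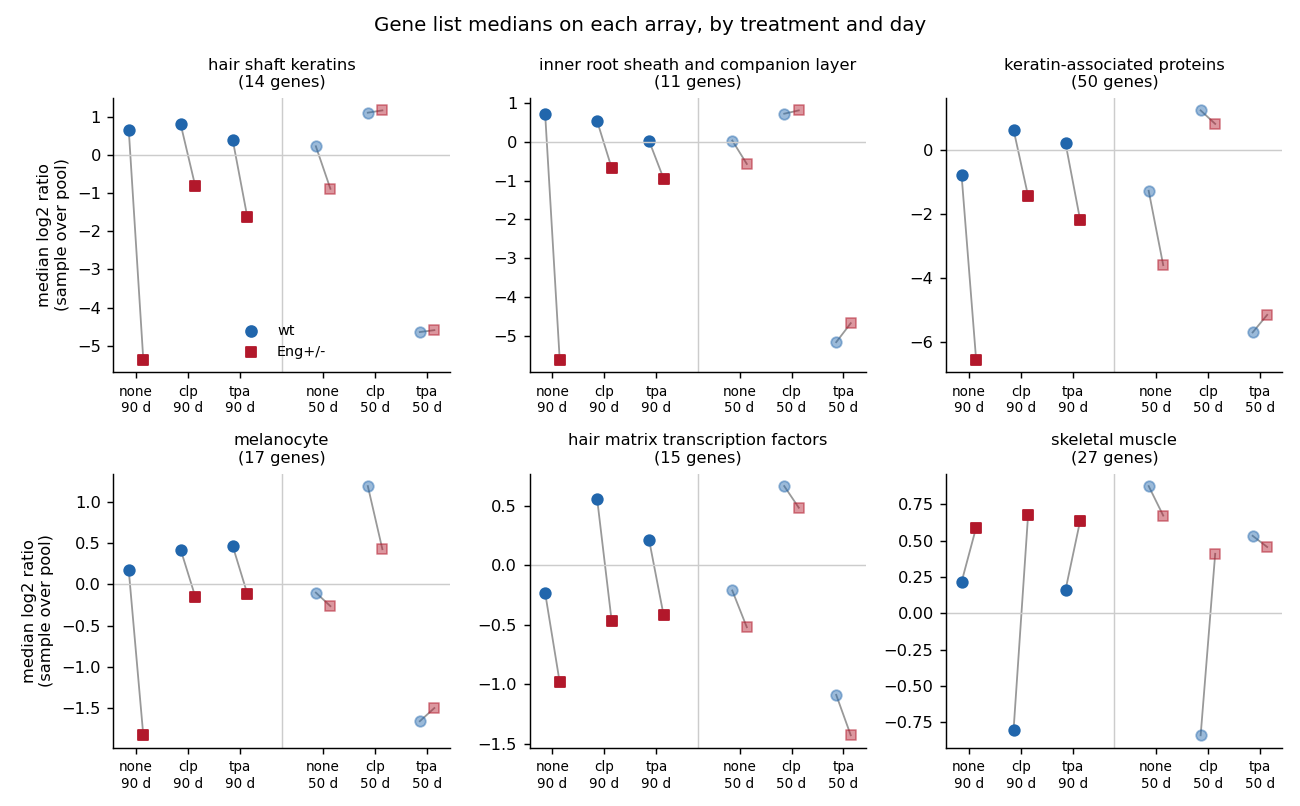
Median log2 ratio (sample over pool, y axis) of 6 gene lists on each of the 12 arrays, by treatment and day on the x axis, with wt as blue circles, Eng+/- as red squares and a line joining each pair (50 day arrays paler). At 90 days the Eng+/- keratin median is below wt in each pair, whereas at 50 days both tpa arrays sit together at -4.59 and -4.64.

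Transcription factors of the hair matrix drive the shaft programme. Of 15 measured, 11 were lower in all 3 pairs and none higher, and 9 did not overlap, with medians of -1.09, -1.30 and -0.35. Hoxc13, which controls hair keratin genes, had log ratios of -2.85, -1.54 and -1.03 in Eng+/- and -0.23, 0.38 and -0.46 in wt. The 3 Eng+/- arrays were below the wt arrays, with a fitted difference of -1.71 ± 0.35 (adjusted p = 0.139, limma). Dlx2 had -2.25, -0.67 and 0.17 against 1.12, 1.43 and 0.72, a fitted difference of -2.01 ± 0.47. Msx2, a homeobox factor of matrix and shaft, differed by -2.91, -0.91 and -0.90.

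Lef1, the Wnt effector of hair differentiation, had the most even difference of the list. Its log ratios were -1.58, -0.47 and -0.42 in Eng+/- and -0.48, 0.83 and 0.52 in wt. Each Eng+/- array was below its own partner, but the wt array without a named treatment lay among the Eng+/- arrays, so the groups overlapped. The differences of -1.10, -1.30 and -0.94 gave a fitted value of -1.11 ± 0.14 (adjusted p = 0.0543, limma). Ovol1, an epithelial zinc finger factor, had -1.06 ± 0.15 (adjusted p = 0.0752). Elf5, an epithelial factor of the ETS family, had log ratios of -0.33, 0.29 and 0.06 in Eng+/- and 0.86, 1.06 and 0.80 in wt, a fitted difference of -0.90 ± 0.12 (adjusted p = 0.0641). Gata3, the factor of the inner root sheath, had 1.5, -0.52 and -0.02, and Cux1 and Foxq1 were also of mixed sign. Another probe of Cux1 was lower in all 3 pairs, at -1.75, -1.63 and -0.09, and its remaining probe was mixed.

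Melanocytes supply pigment to the growing hair. Of 17 measured genes, 12 were lower in all 3 pairs and 2 higher, and in 10 the Eng+/- arrays all lay below the wt arrays. Tyrp1, an enzyme of melanin synthesis, had log ratios of -4.58, -1.13 and -1.38 in Eng+/- and 0.07, 0.74 and -0.19 in wt, with a fitted difference of -2.57 ± 0.65 (adjusted p = 0.2, limma). Its Eng+/- values were all below the wt values, the array without a named treatment by far. Mlana, a melanosome protein, had -1.90, -1.48 and -1.15 (fitted -1.51 ± 0.23, adjusted p = 0.0793) and Pmel, which builds the melanosome fibrils, -2.15, -1.43 and -0.80. Dct, a further enzyme of the pathway, had a fitted difference of -1.83, with saturated spots on 2 wt arrays, and -2.31 by its other probe. Tyr, its rate-limiting enzyme, had -0.97, -1.04 and -0.60, but -0.26, -0.20 and -0.07 by its other probe. Mitf, the lineage factor, had -0.52, -0.51 and -0.56, but 1.11, -1.96 and -0.32 by its other probe. The lineage factor Sox10 had 0.05, 0.00 and 0.10. Trpm1 had 0.61 in the fit by the probe used, and its other probes had 0.08 and -3.09.

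Skeletal muscle genes ran the other way. Of 27 measured genes of 28 listed, 21 were higher in all 3 pairs and none lower, 26 were higher in both the clp and the tpa pair, and 17 did not overlap. The medians were 0.49, 1.42 and 0.53. Myoz1, which anchors calcineurin at the Z disc, had log ratios of 1.26, 0.96 and 1.30 in Eng+/- and -0.07, -0.70 and 0.24 in wt, so all Eng+/- arrays were above all wt arrays. Its fitted difference was 1.35 ± 0.33 (adjusted p = 0.193, limma). Mybpc2, the myosin-binding protein of fast fibres, had 1.34, 1.12 and 1.55, and Pgam2, the muscle form of a glycolytic enzyme, 0.82, 2.22 and 1.16. Of the 7 features at least 2-fold higher in every pair, 5 were muscle genes: Neb, Actn3, Mybpc2, Myoz1 and Atp2a1. Mybpc2 was saturated on 2 Eng+/- arrays and Actn3 on 1, so their differences may be understated.

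Neb, the giant thin-filament protein nebulin, had log ratios of -0.20, -1.64 and 0.09 in Eng+/- and -4.56, -3.05 and -1.53 in wt, with a fitted difference of 2.46 ± 0.58 and 1.23 by its other probe. Not every contractile gene stood apart: Acta1, the main actin of muscle, had -0.44, 0.60 and 0.14, and Tnnt3, a fast troponin, 0.20, 0.77 and 0.22, with saturated spots. The muscle median on the arrays was 0.59, 0.68 and 0.63 in Eng+/- and 0.22, -0.81 and 0.16 in wt, so the wt clp array was the lowest. At 50 days wt clp was again lowest at -0.84, against 0.88 and 0.53 on the other wt arrays and 0.67, 0.41 and 0.46 in Eng+/-. The 50 day medians of the pair differences were -0.29, 1.25 and -0.00. Leaving out either clp array moved the median fitted difference of the list from 0.91 to 0.50. All 27 muscle genes were above background on all 6 arrays, none was at 0, and their part in the hair results was not tested.

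**Figure D4:**
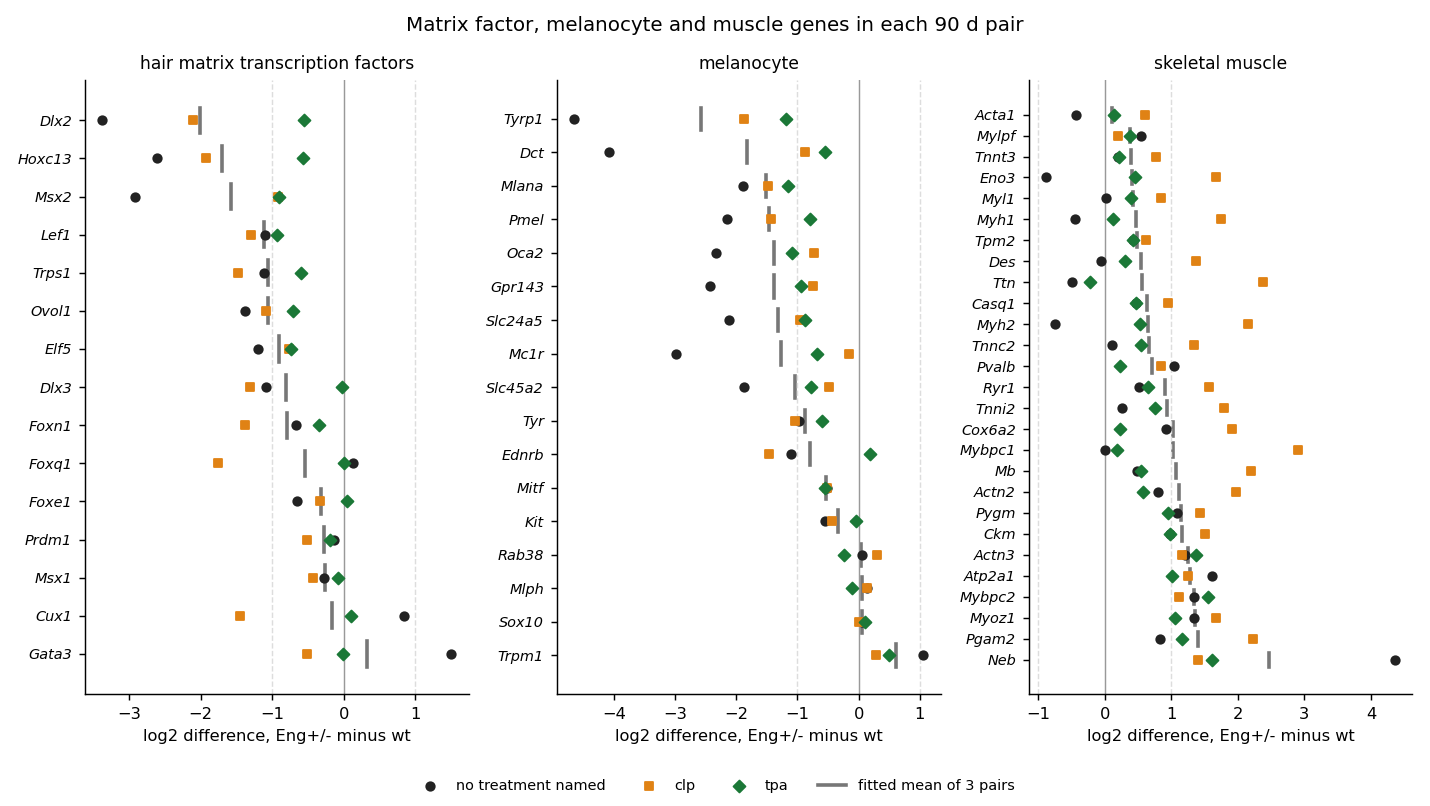
Log2 difference (x axis, Eng+/- minus wt) in the 3 pairs at 90 days for the hair matrix transcription factors, the melanocyte genes and the skeletal muscle genes, with the fitted mean as a grey bar and dashed lines at a 2-fold difference. Matrix factor and melanocyte genes lie mostly left of 0 (11 of 15 and 12 of 17 in every pair), and muscle genes mostly right of it (21 of 27 in every pair).

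Eng itself was lower in each pair but did not separate the groups. Its log ratios were -0.86, -0.78 and -0.38 in Eng+/- and -0.58, 0.82 and 0.79 in wt. The wt array without a named treatment fell among the Eng+/- arrays, and the other 2 wt arrays were well above them. The differences were -0.28, -1.60 and -1.17, with a fitted value of -1.02 ± 0.37 (adjusted p = 0.312, limma). Without the pair lacking a named treatment the value was -1.39 ± 0.39 (adjusted p = 0.424). The pair with the largest hair difference had the smallest Eng difference. Each of these values rests on single arrays, and a link between them was not tested. At 50 days Eng differed by -1.19, -0.99 and 0.63, and the difference between days was -0.50 ± 0.52 (adjusted p = 0.91).

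Among the 17 receptors and Smads, 5 were lower in all 3 pairs, Eng among them, and 1 was higher, with a median fitted difference of -0.06. Acvrl1, the type I receptor that works with endoglin in endothelium, was the higher one, at 0.76, 0.42 and 0.10. The TGF-beta receptors Tgfbr1 and Tgfbr2 had fitted differences of -0.12 and 0.35, and the probes of Tgfbr2 differed in sign. Smad1, which carries the BMP signal, had -0.23 and the shared partner Smad4 -0.04. The other probe of Smad4 had 1.92, -1.21 and 0.59 in the 3 pairs, so Smad4 is uncertain. Bmpr2, the type II BMP receptor, had 1.64, -1.45 and 0.49, so its pairs opposed each other.

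Of 11 ligands, 2 were lower in all 3 pairs (Bmp2, fitted -0.44, and Bmp7, -0.43) and 4 higher, of which Tgfb3 had the largest value at 0.49 ± 0.13 (adjusted p = 0.213, limma). Among 9 BMP antagonists, Nog, which encodes noggin and is a known trigger of follicle growth, was the one lower in every pair. Its log ratios were -2.67, -2.62 and -3.36 in Eng+/- and -0.76, -1.01 and -1.42 in wt. All Eng+/- arrays were lower than all wt arrays, and the pair differences of -1.91, -1.61 and -1.94 were nearly equal, with a fitted value of -1.82 ± 0.34 (adjusted p = 0.111). Fst, which encodes the antagonist follistatin, was higher in all 3 pairs, at 0.62 in the fit. Sostdc1, an antagonist of BMP and Wnt signals, had 2.17, -1.04 and 0.92, and 0.28, -0.65 and 0.12 by its other probe.

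Response genes report on the activity of the pathway. Of 8 measured genes of 10 listed, 5 were lower in all 3 pairs and 1 higher, with a median fitted difference of -0.57, and 2 of the 5 did not overlap. Smad6, the inhibitory Smad of the BMP branch, had log ratios of -1.27, -1.09 and -0.91 in Eng+/- and -0.27, 0.19 and -0.41 in wt, a fitted difference of -0.92 ± 0.18 (adjusted p = 0.131, limma). Id1, a classic BMP target, had -1.81, -0.53 and -0.36, and Smad7, the general inhibitory Smad, -0.33, -1.58 and -0.36. Id4 and Skil, a further target and a repressor of Smads, had -0.60 and -0.53 in the fit. With arrays centred on their median in place of loess, 2 of 8 were lower in all 3 pairs and the median of the pair without a named treatment was 0.62. That setting raised the median of every other list but the Hedgehog genes in the same pair too, and the median fitted difference of the response genes remained negative, at -0.41.

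Signals of the follicle cycle were mostly mixed. Fgf5, the signal that ends hair growth, had log ratios of -2.05, -0.26 and -1.25 in Eng+/- and 1.13, 1.65 and -0.01 in wt. All Eng+/- arrays were below the wt arrays, with a fitted difference of -2.11 ± 0.33 (adjusted p = 0.086, limma). Fgf18, the signal linked to follicle rest, was the opposite: -0.77, -1.29 and -1.84 in Eng+/- against -2.82, -2.51 and -2.37 in wt, a fitted difference of 1.26 ± 0.38 (adjusted p = 0.252). Its Eng+/- arrays all lay above the wt arrays.

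Of 28 Wnt pathway genes, 8 were lower in all 3 pairs, Lef1 the farthest, and 3 higher. The Hedgehog genes counted 2 of 11 lower and none higher. Shh, the matrix signal for growth, had -1.10, 0.03 and 0.03, and its target Gli1 -1.80, -0.14 and 0.24, so both stood apart in the pair without a named treatment only. The Notch genes counted 4 of 15 lower and 3 higher. Heyl, a Notch target, had -0.94 ± 0.23 in the fit. In the FGF list 3 of 12 were lower and 2 higher.

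Genes of resting follicles and of dividing cells stood nearer to 0. Of 15 follicle stem cell genes, 2 were lower and 2 higher in all 3 pairs. The bulge keratin Krt15 had -0.36, 0.36 and -0.04 and was saturated, Lgr5 had -0.76, -0.63 and 0.01, and Sox9, a factor of stem cells and outer sheath, -0.64, -1.15 and 0.03. Of 13 dermal papilla genes, 1 was lower and 5 higher. Cell cycle genes had a median fitted difference of -0.22, with 8 of 35 lower in all 3 pairs and 3 higher. Mki67, the proliferation marker, had -0.64, -1.02 and -0.18 (fitted -0.61 ± 0.25), and Birc5, a mitotic inhibitor of apoptosis, -0.70 ± 0.21. The Eng+/- and wt arrays of both genes overlapped. The other probes of Birc5 had smaller mean differences of -0.32 and -0.41.

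**Figure D5:**
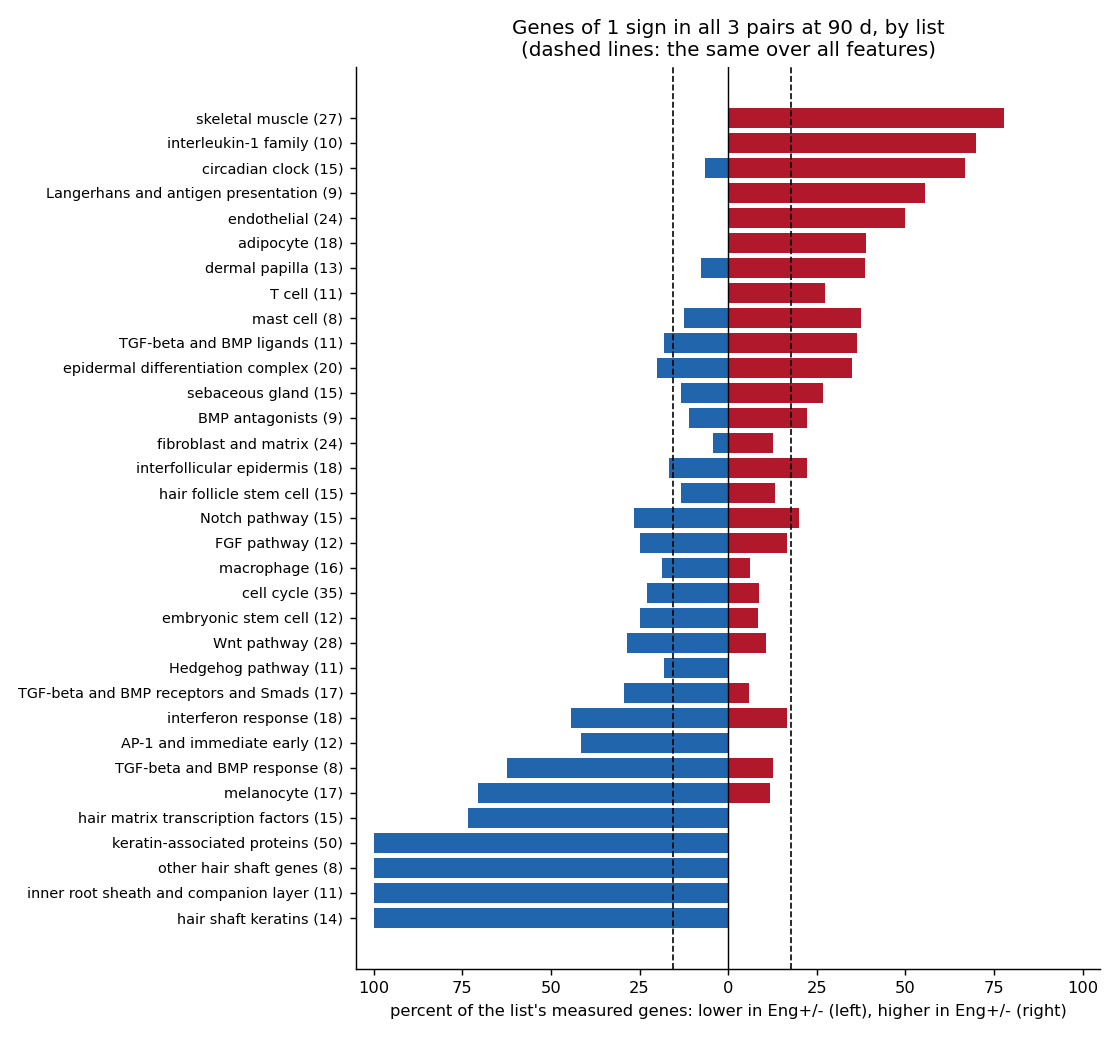
Percent of the measured genes of each list that were lower (blue, left) or higher (red, right) in all 3 pairs at 90 days, with the number of genes beside each name and dashed lines at 15.6% and 17.7%, the shares over all features. The 4 hair structural lists reach the left edge, with all 83 genes, and the muscle list (21 of 27), the interleukin-1 family (7 of 10) and the circadian clock (10 of 15) reach farthest to the right.

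Genes of the surface epidermis lay on both sides of 0. Of 18 interfollicular genes, 3 were lower and 4 higher in all 3 pairs. The basal keratins Krt5 and Krt14 had fitted differences of -0.14 and -0.25 with saturated spots, and Krt10 of the suprabasal layers 0.16. Krt1, the partner of Krt10, had 3.01, 0.94 and 1.03, a fitted value of 1.66 ± 0.39 (adjusted p = 0.172, limma), with a saturated spot on 1 Eng+/- array. In the epidermal differentiation complex 4 of 20 were lower and 7 higher. Crnn, the S100-fused cornulin, had -5.88, -2.90 and -1.56 and did not overlap between genotypes, whereas Flg2, a filaggrin relative, had 1.5, 1.72 and 0.59. The stress keratin Krt6a had -0.87, -1.16 and -0.31, and Krt16 and Krt6b were mixed.

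Sebaceous gland genes counted 2 of 15 lower and 4 higher in all 3 pairs. Fads2, a desaturase abundant in sebocytes, had log ratios of -2.52, -1.34 and -2.0 in Eng+/- and -0.26, 0.40 and -0.32 in wt. It was lower on all Eng+/- arrays, with a fitted difference of -1.89 ± 0.24 (adjusted p = 0.0593, limma). Other lipid genes of the gland did not share it: Scd1 had 0.36, -1.53 and 0.66 and Elovl3 0.36, -0.34 and -0.55. Adipocyte genes counted 7 of 18 higher and none lower, with a median of 0.26. Slc2a4, the insulin-responsive glucose transporter of fat and muscle, had 1.28, 2.20 and 0.96 (fitted 1.48 ± 0.30), with a saturated spot on 1 Eng+/- array. Adipoq, a defining adipocyte gene, had 0.90, -0.46 and 0.40.

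Endothelial genes, the usual site of endoglin, counted 12 of 24 higher in all 3 pairs and none lower. In the list 5 genes did not overlap, and the median fitted difference was 0.28. The fitted differences ran from -1.02 to 0.71. The fitted difference of Lyve1 stayed negative under the other settings run, between -1.58 and -0.37. Still, no gene of the list was lower in all 3 pairs. Sox18, a factor of vessel growth, had 0.88, 0.54 and 0.52 (fitted 0.65 ± 0.14, adjusted p = 0.152, limma), and Cldn5, the tight junction protein of vessels, 0.94, 0.76 and 0.43. Pecam1 and Kdr, defining genes of the type, had fitted differences of -0.07 and -0.04, which turned positive under several other settings, and the second probe of Kdr had 0.56. Fibroblast genes counted 1 of 24 lower and 3 higher. Col1a1 and Col1a2, the chains of the main dermal collagen, had -0.95, 1.55 and 0.12 and -1.05, 0.26 and 0.17.

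Immune genes gave small and mixed differences. Macrophage genes counted 3 of 16 lower and 1 higher, T cell genes 3 of 11 higher and none lower, mast cell genes 1 of 8 lower and 3 higher. Langerhans cell and antigen presentation genes counted 5 of 9 higher and none lower, with a median of 0.31. Cd207, the Langerhans cell lectin, had 0.46 in the fit. Interferon response genes counted 8 of 18 lower and 3 higher. Isg15, a ubiquitin-like effector, had -2.10, -0.20 and -0.86, and -0.68, -0.37 and -0.45 by its other probe.

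In the interleukin-1 family 7 of 10 were higher in all 3 pairs and none lower, with a median of 0.50. Il18 had 0.86, 0.79 and 0.14 and did not overlap. Circadian clock genes counted 10 of 15 higher and 1 lower, with a median of 0.44. Dbp, a clock output factor, had 1.10, 1.61 and 0.31 (fitted 1.01 ± 0.30), and Nr1d1, the repressor of the clock loop, 0.58. The core factors Arntl and Per1 had 0.68, 0.02 and 0.10 and -0.88, 0.41 and -0.45. The sources used here give no time of day for the samples. Of 12 AP-1 and immediate early genes, 5 were lower and none higher, among them Ier2 with -0.53 and Junb with -0.48. Among 12 tested genes of the embryonic stem cell list, 3 were lower and 1 higher.

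Outside the lists, the named genes with the smallest p that were lower all had an adjusted p of 0.0543 in limma. Pla2g10, a secreted phospholipase, had log ratios of -1.74, -0.26 and -0.47 in Eng+/- and 0.06, 1.55 and 1.58 in wt, with differences of -1.81, -1.81 and -2.05. It was not well above background on the Eng+/- array without a named treatment, so the first of these is of unknown size. H2bc6, a histone H2B gene, had -0.16, 0.11 and -0.09 against 1.24, 1.25 and 1.15, the clearest gap between groups among them. Its fitted difference was -1.26 ± 0.13. Procr, the protein C receptor, had differences of -1.65, -1.59 and -1.46, and Serpina10, an inhibitor of coagulation factors, a fitted value of -1.66 ± 0.17. The others were Siah1b (-1.59 ± 0.18) and Rab3ip (-1.21 ± 0.14), and Mecom, Aqp5 and Kcnj11. For these last 3 the probe used had fitted values of -2.26, -2.24 and -2.08, but a second probe of the gene had 0.08, 0.29 and 0.14, so they are uncertain.

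The gene that was higher with the smallest p was Acss2, which makes acetyl-CoA from acetate. It had log ratios of 1.52, 0.32 and 0.79 in Eng+/- and 0.06, -0.93 and -0.06 in wt, with no overlap and a fitted difference of 1.18 ± 0.14 (adjusted p = 0.0543, limma). Its second probe had 0.53. Next came Ppp1r27 (0.96 ± 0.15, adjusted p = 0.086), Plcd4 (0.81 ± 0.13) and Meox2 (0.81 ± 0.13), a homeobox gene of mesoderm. Pkia, an inhibitor of protein kinase A, had 1.18 ± 0.21. Pkia and Stxbp4 were the 2 genes at least 2-fold higher in every pair that were not on the muscle list. Stxbp4 had 1.33, 2.01 and 1.30, with saturated spots on 2 Eng+/- arrays, but -0.08 by its other probe.

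Of the 151 genes with a symbol that were at least 2-fold lower in every pair, 68 were on a list and the rest were not. Those named here from outside the lists were picked after their values were seen. Crisp3 had -5.11, -2.75 and -2.98, but was not well above background on the Eng+/- array without a named treatment. Fbp1, an enzyme of gluconeogenesis, had -5.96, -2.87 and -1.42. The connexins Gjb2 and Gjb6, which join keratinocytes, had -4.62, -2.50 and -1.09 and -3.71, -2.43 and -1.36. Tubb3, a tubulin, had -4.47, -1.86 and -1.15, and Slc7a8, an amino acid transporter, -4.30, -1.73 and -1.17. Gdf5, a BMP-family ligand, had -1.08, -1.46 and -1.60.

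Without the pair lacking a named treatment, the genes with the smallest p were partly others. Serpina10 had -1.90 ± 0.15 over the clp and tpa pairs and Acss2 1.05 ± 0.16, with adjusted p of 0.0613 and 0.118 in limma. Sh2d7 had -2.01 ± 0.19 in these pairs but -0.10 in the third, and its other probe had -0.35, -0.22 and -0.00, so it is uncertain. Among the higher ones Phka1, a subunit of muscle phosphorylase kinase, had 1.57 and 1.04 in them and 0.12 in the pair without a named treatment. In that pair alone the most negative measured differences of named genes were those of Krt33a, Krt34 and Krt27, all with saturated wt spots. The largest higher ones after Neb included Cox8b (3.54, 1.91 and 0.84), a muscle and brown fat respiratory subunit. Fxyd3 (3.19, -0.85 and 0.20) and Mup5 (3.18, -1.53 and 0.44) were high in that pair and not in the clp pair.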

How the data were processed

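Total RNA of 12 samples was measured on 2-colour Agilent mouse arrays. The deposited scanner files hold intensity values of both channels (Feature Extraction 10.7.3.1 and an Agilent scanner per the file headers, 10.0 in the submitters' processing notes, 10.1 and an Axon scanner in the series text). The series text also has wt RNA in Cy3 with dye swaps, whereas the labels of every array have the sample in Cy5 and the pool in Cy3, and the labels were followed. The authors' processed signals and the deposited log10 ratio of Cy5 over Cy3 were used as an alternative. Probe annotation is on mm9 per the file headers.

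Median intensities (mean signals, intended first, were not used here) were background-corrected with limma 3.58.1 in R 4.3.3 (read with the package data.table, version 1.17.8; normexp, offset 50) and normalized by loess within each array. Of 44397 spots, 43020 were not controls and held 39429 probes. Of these, 975 with an outlier flag were left out, and 30523 had Cy5 above background on at least 2 arrays. Accessions were named through the RefSeq table (22366 probes), and the brightest probe stood for a gene.

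The limma model with eBayes had 4 residual degrees of freedom (3 without the pair lacking a named treatment), prior 3.63. It was also run on data simulated from the model itself with independent noise. Such data cannot show how the model deals with saturated or dim spots. The number of arrays limits the precision. Named genes were Eng, the members with the largest mean difference and the defining markers of 34 lists (575 genes), and, each way, the 10 smallest p and the 10 largest smallest differences over the pairs. To these came the 10 smallest p without the pair lacking a named treatment, the 10 largest differences within that pair, and the 5 smallest p between days. A few others were named after their values were seen. Members, lists and motifs were chosen with earlier results of these data known. Alternatives were the processed signals, median centring, Cy5 alone, other probe filters, other probe summaries, other sets of arrays, no pair block and each array left out.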

Additional observations from a re-analysis of the deposited data

How the results depend on the processing

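The median of the shaft keratins kept its direction under every setting run, as did Eng, which passed the threshold in none. The median fitted difference of the shaft keratins ranged from -3.96 to -1.93, and that of Eng from -1.39 to -0.72. The number of hair structural genes lower in every pair did depend on the setting. With Cy5 alone it was 13 of 14 shaft keratins, 8 of 11 inner root sheath genes and 7 of 8 other shaft genes. With median centring it was 10 of 11 inner root sheath genes and 48 of 50 keratin-associated genes, but 14 of 14 shaft keratins and 8 of 8 other shaft genes. The count of called features was 0 in the model used, with the 90 day arrays alone and with each 90 day array left out in turn. It was 247 with median centring (241 lower, 6 higher), 269 with Cy5 alone (255 and 14) and 96 with both channels above background (95 and 1, of 18145 tested). Of the hair structural genes, these settings called 77 of 83, 28 of 83 and 11 of 74. Without the pair lacking a named treatment the count was 207 from the 90 day arrays alone, 416 with median centring, 80 with Cy5 alone, 67 with both channels above background, and from 14 to 21 with 1 further array left out, where the lone pair is assumed to vary like the other arrays. The contrast between days called 2 with median centring.

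Counts of 2-fold differences moved with scaling. The authors' processed signals gave 5791, 4682 and 1261 in the 3 pairs, median centring 11402 and 3723 in the first and second, and Cy5 alone 3013 in the clp pair. The share of features at least 2-fold lower in every pair was 1.41% with processed signals and 0.868 to 1.9% with 1 array left out, which leaves 2 pairs to count, with 1.9% without either tpa array. The share higher in every pair was 0.116% with processed signals, 0.0159% with median centring, 0.0677% with Cy5 alone and 0.0398 to 0.426% with 1 array left out, with 0.426% without either tpa array. Over all features the shares lower and higher in every pair were 14.4 and 20.1% with processed signals, 6.71 and 11.6% with median centring, and 16 and 20.9% with Cy5 alone. The cause was not tested.

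Of 153 named genes over 15 settings, 9 reversed sign in at least 1. Pecam1 had 0.06 (processed signals), 0.20 (median centring), 0.17 (Cy5 alone) and -0.21 to 0.18 with 1 array left out. Kdr had 0.06, 0.12 and 0.39 in the same 3, 0.26 as the mean of its probes and -0.39 to 0.46 with 1 array left out. Tnni2 had -0.05 with Cy5 alone, and Krt5 0.14 with median centring. With 1 array left out, Krt5 ranged from -0.34 to 0.12, Fxyd3 from -0.33 to 1.70, Mup5 from -0.54 to 1.81, Sostdc1 from -0.06 to 1.55, Acta1 from -0.15 to 0.37 and Krt10 from -0.14 to 0.35. The negative values of Fxyd3, Mup5 and Sostdc1 and the positive one of Krt5 were those without either array of the pair lacking a named treatment. The negative values of Acta1 and Krt10 and the positive ones of Pecam1 and Kdr were those without either clp array. The median changed sign under some setting for the lists of the epidermal differentiation complex, stress keratins, sebaceous gland, fibroblasts, macrophages, interferon response, embryonic stem cells, receptors, ligands, BMP antagonists, Notch and FGF. Saturated wt spots and dim Eng+/- spots limit the size of many hair differences.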
